A study of Mus musculus with 4 samples.

Results

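Vascular and leptomeningeal fibroblasts, the cell class that the study names VLMCs, were 103 of the 14147 cells kept in 3 single-cell libraries of mouse hippocampus. A cell was kept when it had UMIs of 650 or more genes, a UMI being 1 counted transcript molecule. A kept cell was taken as a fibroblast when, per 10000 of its UMIs, the sum of *Col1a1*, *Col1a2*, *Lum* and *Slc6a13* was at least 10. It also had to have *Vtn*, *Kcnj8* and *Atp13a5* summing to under 20 (the pericyte limit), *Acta2*, *Tagln* and *Myh11* to under 60, *Cldn5*, *Flt1* and *Ly6c1* to under 40, and *Ttr* under 200. This gave 28 of 5109 cells in sham 1, 51 of 5126 in sham 2 and 24 of 3912 in 2VO 1.

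The mice were C57BL/6 of 12 weeks by the labels, with 1 library per mouse and hippocampus taken on the seventh day after surgery. In 2VO both common carotid arteries were clamped for a time and then released, which models transient global ischemia, and in sham the clamps were put in place and removed at once. Whole hippocampus was dissociated with pronase and no cells were sorted, so meningeal and vascular tissue entered with the neural tissue. The comparison of 2VO with sham rested on 2 sham mice and 1 2VO mouse, and the other 2VO library was not used here.

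Fibroblasts of the brain lie in the pia and arachnoid and in the sheath of the larger vessels that enter the tissue, between the vessel wall and the glial border. They make interstitial collagens and proteoglycans, and the arachnoid barrier and inner leptomeningeal cells also carry solute transporters and the prostaglandin D synthase encoded by *Ptgds*. They lie next to pericytes and smooth muscle cells, the mural cells of the vessels, with which they share developmental transcription factors.

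The share of kept cells was 0.548% in sham 1 (exact Clopper-Pearson 95% interval 0.364% to 0.791%), 0.995% in sham 2 (0.742% to 1.31%) and 0.613% in 2VO 1 (0.393% to 0.911%). 2VO 1 fell between the 2 sham shares, so the groups overlapped under this rule. With 2 libraries against 1 there are 3 splits and the smallest two-sided exact permutation p is 0.333, so no test of the share was made. The intervals cover counting error only. How many fibroblasts a library holds also depended on the pericyte limit: with *Vtn* left out of it, sham 1 held 0.920%, sham 2 held 2.17% and 2VO 1 held 0.844%. The order of the groups depended on the rule, since 2VO 1 was below both sham libraries there and under several stricter rules. It was at 0.332% against 0.470% and 0.800% at a marker sum of 20, at 0.486% against 0.509% and 0.936% with 3 UMIs from at least 2 of the 4 genes, and at 0.409% against 0.470% and 0.936% with a *Dcn* UMI. It was also below both at a marker sum of 40 and without Scrublet doublets, at 0.0767% and 0.190%.

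The libraries differed in depth, with medians of 8191, 5249 and 2311 UMIs over the kept cells of sham 1, sham 2 and 2VO 1. The fibroblasts had medians of 3826.5, 3737 and 2787 UMIs and held 133393, 229350 and 97903 UMIs in all. Mitochondrial transcripts were 4.46% to 6.38% of fibroblast UMIs, and transcripts associated with ribosomal RNA were 8.05% in sham 2 against 1.46% in sham 1 and 2.28% in 2VO 1. Between 7 and 10 barcodes of kept cells were shared by a pair of libraries, and none of the shared ones was a fibroblast in both.

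The cells bore out the label on a gene the rule did not use. *Dcn*, which encodes the collagen-binding proteoglycan decorin, had a UMI in 24 of 28 cells in sham 1 (85.7%), 48 of 51 in sham 2 (94.1%) and 16 of 24 in 2VO 1 (66.7%). Endothelial-gated cells had a *Dcn* UMI in 0.0963%, 0.497% and 0.776% of cells, at median depths of 3107.5, 2760 and 2055 UMIs. Thinned to 1000 UMIs per cell, the fibroblast shares were 74.1%, 70.6% and 60.9%. The 8 pericyte markers, 3 of them genes of the rule, summed to 3.15, 7.67 and 5.82 per 10000 fibroblast UMIs. In pericyte-gated cells they summed to 276, 294 and 194. The highest sum in a fibroblast was 67.3, in 2VO 1. All 7 macrophage markers were at 0 in both sham libraries and 3 of 7 in 2VO 1. Astrocyte markers were not low: the 9 summed to 45.3, 136 and 69.8, against 17.4, 27.1 and 21.9 over all kept cells.

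The 4 genes of the rule were not detected together in every cell. All 4 had a UMI in 6, 10 and 4 cells of sham 1, sham 2 and 2VO 1, and a single one of them in 2, 3 and 4 cells. The median cell had 14.5, 11 and 6 UMIs of the 4 genes, so membership rested on fewer molecules in 2VO 1. The cells just inside the limit of 10 had sums of 10.1, 10.4 and 10.9, and those just outside had 9.88, 9.81 and 9.73, all from 2VO 1 and on 1 or 2 UMIs. In sham 2, 87 of the 144 cells with a sum of 10 or more were over the pericyte limit, and 45 of these had no UMI of *Kcnj8* or *Atp13a5*, with *Dcn* in 39 of those.

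*Col1a1* and *Col1a2* encode the chains of type I collagen, and *Lum* the proteoglycan lumican, which binds collagen fibrils. Summed over the fibroblasts of a library and scaled to CPM (counts per 1e6 counts, with TMM factors), the *Col1a1* level was 1641 in sham 1, 1028 in sham 2 and 678 in 2VO 1. The *Col1a2* level was 2093, 1378 and 1100 CPM, and *Lum* was 1141, 473 and 780 CPM. *Slc6a13*, a GABA and taurine transporter of the leptomeninges, was at 427, 1063 and 537 CPM. The collagen genes were lowest in 2VO 1 and the other 2 genes lay between the sham values there. These are the genes of the rule, so the values are a description only.

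Among the fibroblasts, the level of *Ptgds* differed widely from cell to cell. It ranged from 0 to 2690 per 10000 UMIs in sham 1, with a median of 2.14, from 0 to 3718 in sham 2, with a median of 236, and from 0 to 2657 in 2VO 1, with a median of 45.6. At 100 per 10000 or more, a limit chosen after the values were seen, were 7 of 28 cells (25.0%), 29 of 51 (56.9%) and 10 of 24 (41.7%). The cells between 50 and 200 numbered 0, 3 and 3, so few lay near the limit. A *Ptgds* UMI was also found in 24.8%, 24.9% and 68.0% of endothelial-gated cells, and the source of these UMIs was not tested. Fibroblasts under 100 summed to 2.16, 3.44 and 22.1 per 10000, against 1664, 1550 and 1503 in the *Ptgds*-rich cells.

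**Figure D1:**
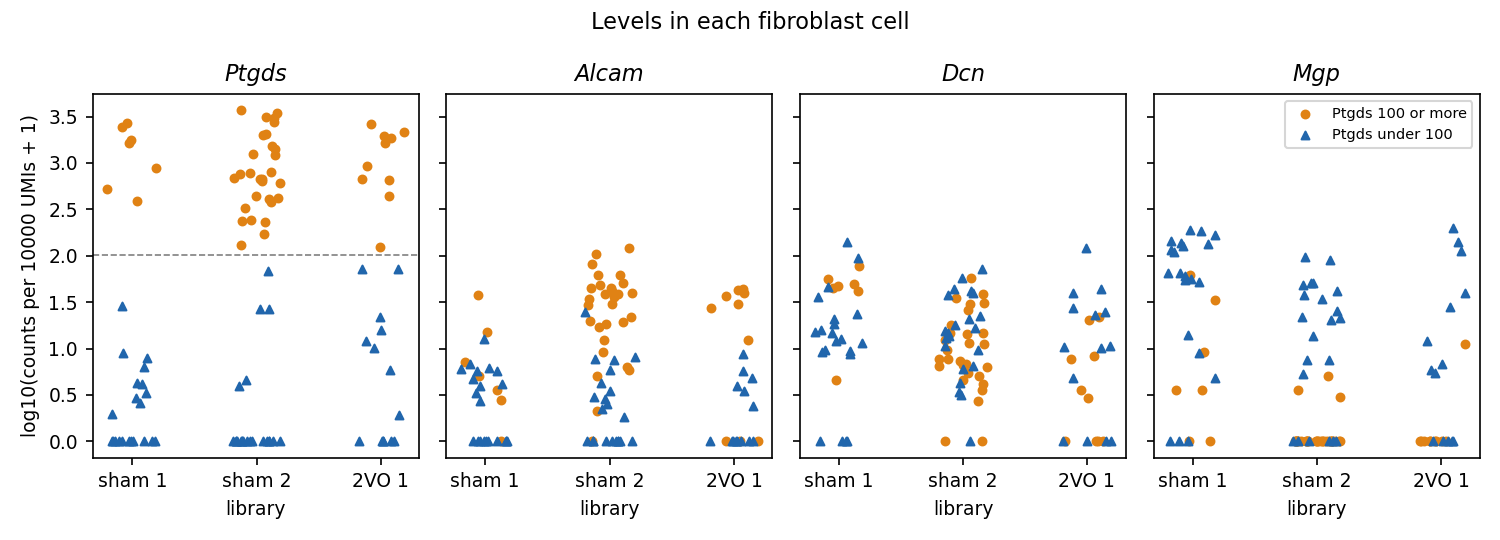
Each point is 1 of the 103 fibroblasts, plotted by library (x axis) against the level of *Ptgds*, *Alcam*, *Dcn* or *Mgp* as log10 of counts per 10000 UMIs plus 1 (y axis), with the limit of 100 dashed in the *Ptgds* panel. Orange circles are cells at or above that limit and blue triangles the others: *Mgp* had a UMI in 5, 3 and 1 of the 7, 29 and 10 *Ptgds*-rich cells and in 18, 16 and 9 of the 21, 22 and 14 *Ptgds*-poor cells.

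The genes richer in *Ptgds*-rich cells are described first. Of 368 genes with at least 10 counts in these cells in every library, 34 were at least 2 times richer there in all 3 libraries. They included the organic anion transporters *Slc22a6* and *Slc22a8*, the dicarboxylate and sulphate carriers *Slc13a3* and *Slc13a4*, the cystine exchanger *Slc7a11*, the connexins *Gjb2*, *Gjb6* and *Gja1*, and *Bmp7*, *Osr1*, *Fmod*, *Nnat* and *Alcam*. *Slc22a6* was at 5.93, 8.11 and 6.93 per 10000 UMIs in the *Ptgds*-rich cells of sham 1, sham 2 and 2VO 1 against 0.911, 1.22 and 0.696 in the others. *Aldh1a2*, which makes retinoic acid, was at 3.95, 4.38 and 3.96 against 0.114, 0.333 and 0. *Crabp2*, which carries retinoic acid to the nucleus, was at 5.05, 3.59 and 7.43 against 0, 0.333 and 0. In each of these genes every library of the *Ptgds*-rich cells lay above every library of the others. *Nnat* was at 37.5, 29.4 and 28.0 against 0.911, 2.44 and 0.870, and the adhesion molecule gene *Alcam* at 17.1, 34.5 and 28.0 against 2.50, 2.66 and 1.22.

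The genes richer in *Ptgds*-poor cells are described next. More genes reached the count limit in the poor cells than in the rich ones, so the numbers found in the 2 sets are not comparable. Of 739 genes with at least 10 counts in these cells in every library, 67 were at least 2 times richer there in all 3 libraries. They included *Mgp*, *Alpl*, *Moxd1*, *Inmt*, *Cygb*, *F3*, *Col18a1*, *Lamb1*, *Nid1*, *Igfbp4*, *Igfbp5*, *Igfbp7*, *Tgfbi*, *Itga8*, *Tcf21* and *Vcam1*, and also the inducible transcription factors *Fos*, *Egr1*, *Junb* and *Cebpb*, the inhibitors of differentiation *Id2* and *Id3*, and *H2-T23*. *Mgp*, an inhibitor of calcification in vessel walls, was at 82.7, 28.6 and 43.0 per 10000 UMIs in them against 7.68, 0.503 and 0.990 in the *Ptgds*-rich cells. *Alpl*, which encodes tissue-nonspecific alkaline phosphatase, was at 16.7, 19.5 and 12.5 against 0.219, 0 and 0.248. The methyltransferase gene *Inmt* was at 7.63, 5.11 and 3.83 against 0, 0 and 0, a total of 0 UMIs in 46 cells. *F3*, tissue factor, which starts coagulation, was at 12.7, 5.99 and 12.7 against 0.439, 0.287 and 0.248. *Fos* was at 6.94, 15.2 and 32.0 against 1.76, 0.431 and 5.20. Matrix genes were not all on this side: *Fmod*, which encodes the collagen-binding fibromodulin, was at 0.683, 1.22 and 0 against 2.85, 15.4 and 9.16, and *Col15a1* was at 2.16, 0.777 and 1.22 against 0.659, 0.790 and 1.73.

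The rule's own genes were split less evenly than these. *Slc6a13* was at 8.78, 12.1 and 8.17 per 10000 UMIs in the *Ptgds*-rich cells against 1.37, 1.44 and 1.57, whereas *Lum* was at 5.05, 1.22 and 0.990 against 13.2, 7.10 and 9.91. *Col1a1* was at 8.56, 6.32 and 7.67 in the rich cells against 18.3, 9.77 and 3.83, so 2VO 1 had the other order. *Dcn* did not keep 1 order either, at 46.3, 10.3 and 4.70 in the rich cells against 28.1, 27.5 and 32.0. The summed arachnoid markers stood at 28.3, 26.2 and 28.7 against 6.60, 6.10 and 9.04, and the summed dural markers, of which *Mgp* is the main one here, at 11.6, 3.23 and 5.45 against 105, 54.9 and 64.2. The summed pial markers were at 19.8, 9.48 and 7.18 in the rich cells against 27.7, 19.5 and 12.9. The summed perivascular markers were at 3.29, 16.6 and 14.4 against 20.3, 20.6 and 15.1, so both of these sums were lower in the rich cells in each library. *Vtn*, a gene of the pericyte limit, was at 4.39, 10.6 and 7.43 against 1.37, 1.55 and 2.43. Since the cells were divided on *Ptgds* and the genes picked on these same cells, the values carry no test, and neither set of cells is given a cell type name.

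**Figure D2:**
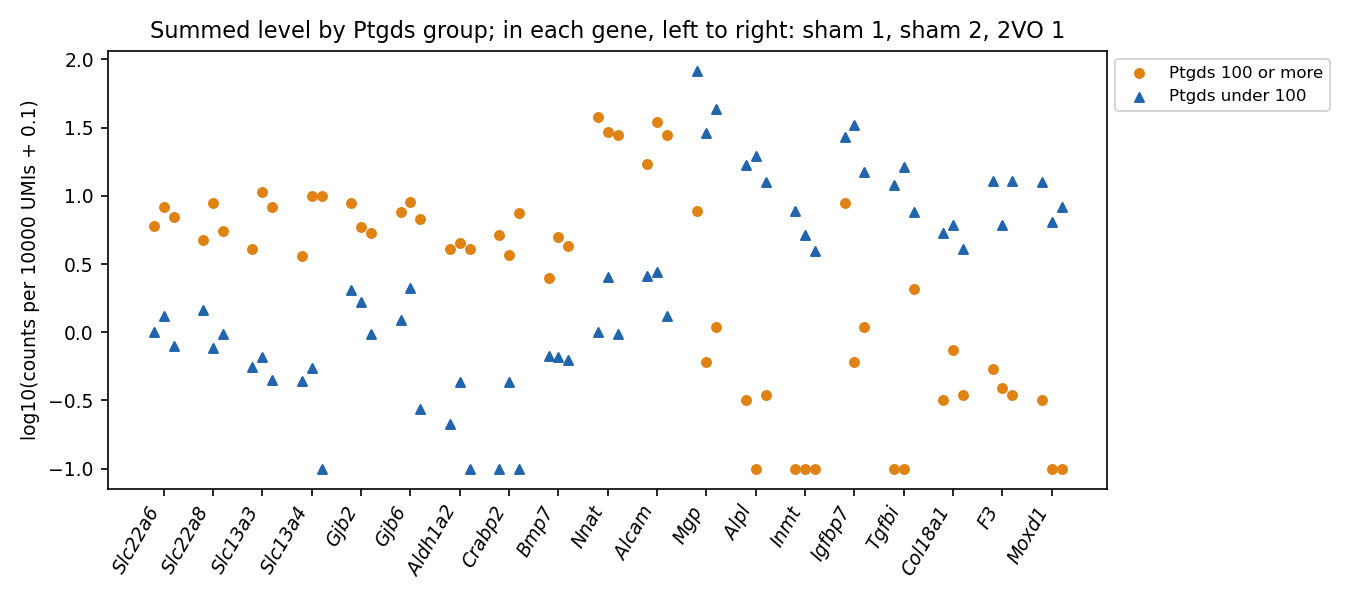
For 19 genes (x axis), the level summed over the *Ptgds*-rich cells (orange circles) and the *Ptgds*-poor cells (blue triangles) of each library is given as log10 of counts per 10000 UMIs plus 0.1 (y axis), so that -1 is a level of 0. The left 11 genes lie higher in *Ptgds*-rich cells and the right 8 in *Ptgds*-poor cells, in each of the 3 libraries.

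To see which genes set fibroblasts apart from their neighbours on the vessel, their sums were tested against those of 508 pericyte-gated cells (98, 270 and 140 per library) and 490 smooth-muscle-gated cells (105, 256 and 129), with the library as a block (edgeR quasi-likelihood test, Benjamini-Hochberg adjusted p under 0.05 and fold over 2). Against pericyte-gated cells, 482 of 6391 genes were called higher in fibroblasts (7.54%) and 558 lower (8.73%). Against smooth-muscle-gated cells, 936 were called higher (14.6%) and 913 lower (14.3%). Higher than both classes were 353 genes, and lower than both 292. The 14 gate genes had no test, and genes that go with a gate gene in these cells differ in part through the choice of cells.

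By function, the fibroblast genes outside the rule were called higher in 14 of 14 tested against pericyte-gated cells and 13 of 14 against smooth-muscle-gated cells. The solute carriers of the leptomeninges were called higher in 8 and 10 of 11, the fibrillar and associated collagens in 6 and 7 of 8, and the prostaglandin and lipid carriers in 8 and 9 of 12, with 1 lower against smooth muscle. The proteoglycans and glycoproteins were called higher in 13 and 16 of 24, with 3 lower in each case. Basement membrane genes were mixed, with 4 higher and 4 lower of 15 against pericyte-gated cells and 7 higher and 4 lower against smooth-muscle-gated cells. The chemokines and cytokines were higher in 5 and 8 of 9, and the retinoic acid pathway in 6 and 6 of 9, with 2 and 1 lower. Outside the basement membrane list, each of these higher shares was above 50%, against 7.54% and 14.6% of all genes.

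The levels in this comparison are CPM of the fit over the 3 classes. *Alpl* was at 1113, 872 and 806 CPM in the fibroblasts of sham 1, sham 2 and 2VO 1, and at 11.7 CPM or less in every mural sum (log2 difference 7.06, SE 0.39, adjusted p = 1.72e-08 against pericyte-gated cells). *Moxd1*, a monooxygenase-like gene, was at 835, 282 and 519 CPM, against 3.1 or less in every mural sum. *Wnt5a*, a ligand of non-canonical Wnt signalling, was at 421, 401 and 254 CPM, against 11.7 or less. In each of these genes the lowest fibroblast library lay far above the highest mural one. The other genes with the strongest calls were *Cpxm1*, *Gjb6*, *Efemp1*, *Cemip*, *Aebp1*, *Ranbp3l* and *Gjb2*, with fibroblast levels of 221 to 1238 CPM.

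*Ptgds* was at 57149, 107083 and 68442 CPM in fibroblasts, at 851 to 3946 in pericyte-gated cells and at 447 to 1649 in smooth-muscle-gated cells (log2 differences 5.0, SE 0.41, and 6.58, SE 0.44). *Dcn* was at 3444, 1942 and 2241 CPM against 40.3 or less. Both genes held the same order in all 3 libraries. *Vcam1*, an adhesion molecule for leukocytes, was at 820, 570 and 287 CPM against 12.4 or less.

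Of 18 meningeal transcription factors tested, 6 were called higher and 2 lower than in pericyte-gated cells, and 8 higher and 2 lower than in smooth-muscle-gated cells. Over all genes, 7.54% were called higher and 8.73% lower against pericyte-gated cells, and 14.6% and 14.3% against smooth-muscle-gated cells. *Osr1* was at 75.2, 268 and 166 CPM in fibroblasts against 2.59 or less in pericyte-gated cells. Others did not pass the test against pericytes. *Zic1* was at 413, 609 and 431 CPM in fibroblasts and 638, 462 and 604 in pericyte-gated cells (log2 difference -0.18, SE 0.25, adjusted p = 0.732), and *Foxd1* at 376, 317 and 110 against 299, 278 and 266 (-0.05, SE 0.27, adjusted p = 0.945). *Foxc1*, needed for meningeal development, had a log2 difference of 0.71 (SE 0.29, adjusted p = 0.108). *Lama2*, a laminin chain outside that list, had one of -0.41 (SE 0.28, adjusted p = 0.393). The groups overlapped in *Zic1* and *Foxd1*. *Zic1* and *Lama2* were higher in fibroblasts than in smooth-muscle-gated cells, by 1.28 (SE 0.26) and 3.53 (SE 0.35) on the log2 scale.

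*Col4a1* and *Col4a2*, chains of the type IV collagen of basement membranes, were lower in fibroblasts than in both mural classes. *Col4a1* was at 218, 243 and 66.2 CPM in fibroblasts, against 508 to 1036 in pericyte-gated and 606 to 766 in smooth-muscle-gated cells (log2 differences -2.20, SE 0.30, and -1.93, SE 0.30, adjusted p = 6.18e-05 and 0.000123), and *Col4a2* differed by -2.21 (SE 0.34) and -2.52 (SE 0.34). Another chain of the family, *Col4a5*, was at 180, 94.1 and 66.2 CPM against 28.5 to 55.5 in pericyte-gated cells, where it was called higher in fibroblasts (1.47, SE 0.32, adjusted p = 0.00332), and did not pass against smooth-muscle-gated cells (0.25, SE 0.27, adjusted p = 0.5). The mural genes with the strongest calls lower in fibroblasts were *Mfge8*, *Rgs4*, *Slc38a11*, *Rgs5* and *Notch3*. *Rgs5*, a regulator of G-protein signalling in mural cells, was at 15.0, 4.95 and 66.2 CPM in fibroblasts against 3639 to 6592 in pericyte-gated cells. The 5 tested pericyte markers were all called lower than in pericyte-gated cells (8.73% of all genes were), as the pericyte limit of the rule favours.

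**Figure D3:**
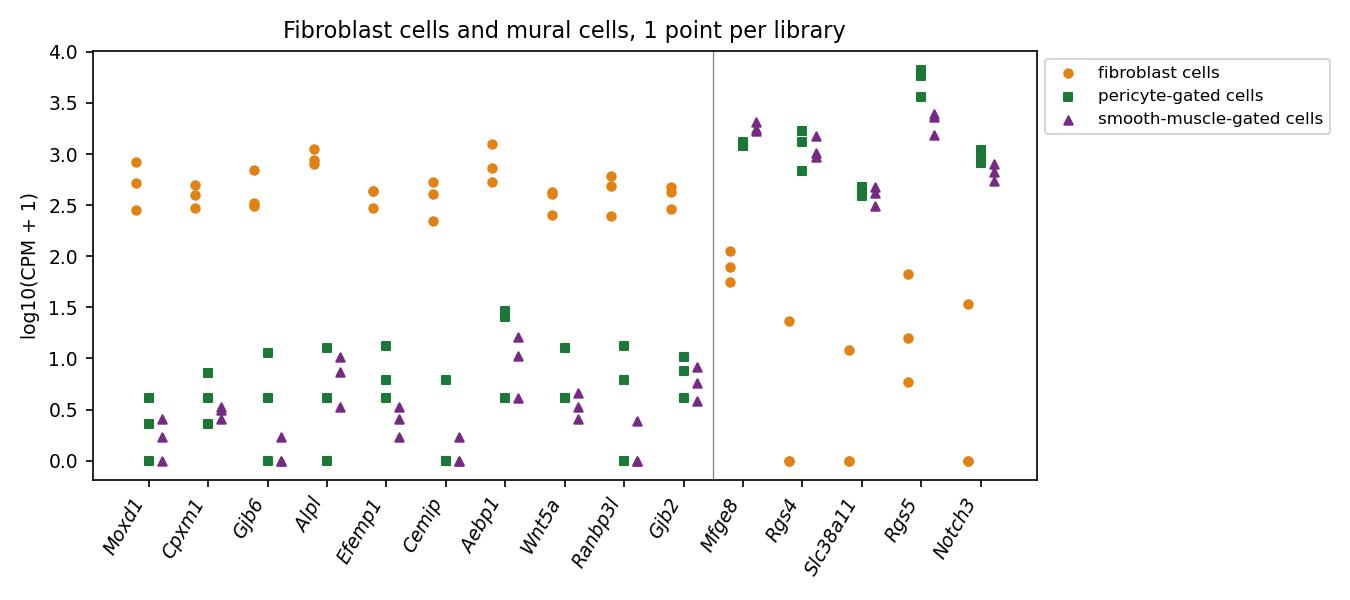
The level of the 10 genes called higher (left of the line) and the 5 called lower (right) in fibroblasts than in both mural classes, as log10 of CPM plus 1 (y axis), with 1 point per library for fibroblast cells (orange circles), pericyte-gated cells (green squares) and smooth-muscle-gated cells (purple triangles). In all 15 genes the fibroblast points do not overlap the mural ones.

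After 2VO, the genes called higher in fibroblasts included inducible regulators of cytokine signalling and transcripts of glia. In the test over fibroblast sums (edgeR quasi-likelihood test, adjusted p under 0.05 and fold over 1.5), 42 of 3512 genes were called higher in 2VO 1 (1.20%) and 1 lower (0.0285%). Without any test, 34.6% of all genes lay above both sham libraries and 36.1% below both. There was 1 residual degree of freedom, so the fit takes the spread of the sham pair as that of 2VO too, and mouse and treatment cannot be told apart in 2VO 1.

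The strongest call among the genes with at least 50 counts was *Cebpd*, a transcription factor of the acute-phase response. Its level in the CPM of the fibroblast fit was 41.0 in sham 1, 75.9 in sham 2 and 1215 in 2VO 1, from 5, 13 and 95 counts (log2 difference 4.31, SE 0.52, adjusted p = 9.49e-06). The 2VO library stood apart from both sham libraries. A *Cebpd* UMI was found in 5 of 28, 7 of 51 and 12 of 24 cells, and 1 cell of 10622 UMIs held 52.6% of the 2VO counts. The call was lost without Scrublet doublets, which leaves 6 fibroblasts in 2VO 1 (0.65, adjusted p = 0.865), and at 1000 genes per cell (4.51, adjusted p = 0.193). *Socs3*, the feedback inhibitor of cytokine signalling through STAT3, was at 0, 40.9 and 652 CPM, from 0, 7 and 51 counts (4.75, SE 0.63, adjusted p = 3.54e-05). Its UMIs were in 0 of 28 cells of sham 1, where a floor of 3 of 28 cells is a share of 10.7% and the exact 95% interval reaches 12.3%. They were in 5 of 51 cells of sham 2 and in 10 of 24 of 2VO 1, where the richest cell held 23.5% of the counts. Without sham 1 its log2 difference was 3.87, and without sham 2, which holds all its sham counts, 7.04. *Zfp36*, which destabilises cytokine mRNAs, was at 65.7, 75.9 and 614 CPM (3.09, SE 0.48, adjusted p = 0.000326), with a UMI in 4, 8 and 13 cells. *Dusp1*, a phosphatase that turns off MAP kinases, was at 107, 123 and 704 CPM (2.60, SE 0.46, adjusted p = 0.00203), with a UMI in 5, 10 and 10 cells. In all 4 genes 2VO 1 lay above both sham libraries.

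The chemokine gene *Cxcl1*, which attracts neutrophils, had 0, 2 and 42 counts, a ratio of 78.7 over the pooled sham rate (95% counting interval 20.5 to 671), but 76.2% of them came from 1 cell and 4 of 24 cells had any. Its log2 difference was 6.12 (SE 0.70, adjusted p = 5.79e-06), and 5.10 without sham 1. *Fosb*, an AP-1 subunit induced by stimulation, was at 16.4, 117 and 972 CPM (3.75, SE 0.58, adjusted p = 0.000326), with a UMI in 2, 4 and 14 cells, and the log2 difference was 3.01 without sham 1 and 5.51 without sham 2. The matrix protease gene *Adamts1* was at 115, 35.0 and 550 CPM (2.94, SE 0.53, adjusted p = 0.0022). The Wnt antagonist gene *Sfrp4* was at 16.4, 11.7 and 409 CPM, with a UMI in 2, 1 and 4 cells. The remaining genes that the naming rule gave, *Syt11*, *Gadd45g*, *Gm26870* and the myelin gene *Mag*, had adjusted p of 0.000794 to 0.00438.

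The single gene called lower was *Clmp*, an adhesion molecule of cell junctions, at 361, 397 and 64.0 CPM (log2 difference -2.55, SE 0.63, adjusted p = 0.038), with a UMI in 19 of 28, 35 of 51 and 5 of 24 cells. Endothelial-gated cells had it in 0.963%, 1.37% and 0.233% of cells. *Chd3* was at 304, 292 and 64.0 CPM and was not called (adjusted p = 0.0945), nor were *Ctnnal1* (0.143) and *Cpe* (0.181).

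By function, the immediate early and dissociation response list stood out in its count: 9 of 18 tested genes were called higher (1.20% of all genes were), all 18 lay above both sham libraries, and the median log2 difference was 1.96 against -0.05 over all genes tested. The called ones were *Atf3*, *Fosb*, *Zfp36*, *Klf2*, *Ier2*, *Junb*, *Socs3*, *Nr4a1* and *Dusp1*. *Fos*, at 566, 835 and 2623 CPM, was not called (adjusted p = 0.0686), nor was *Jun*, at 1239, 531 and 2814 CPM (0.223). Beside these, a *Fosb* UMI was found in 6.84%, 30.5% and 42.0% of endothelial-gated cells of sham 1, sham 2 and 2VO 1, highest in 2VO 1 there too.

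Matrix and identity genes were not called as groups. None of the 14 fibroblast genes outside the rule, 9 collagens, 14 basement membrane genes, 12 solute carriers, 10 retinoic acid genes or 16 meningeal transcription factors passed the edgeR test in either direction; over all genes 257 had an unadjusted p under 0.05. In simulated data this test recovered 1 of 200 genes changed 2-fold, so a change of that size is seldom called here. The collagens had a median log2 difference of -0.69, with 7 of 9 negative. *Col4a1* was at 238, 286 and 76.8 CPM (-1.77, SE 0.60, adjusted p = 0.27), and *Col5a1*, which nucleates fibrils, at 123, 164 and 38.4 (-1.89, SE 0.77, adjusted p = 0.472). Both lay below both sham libraries, as 36.1% of all genes did. *Ptgds* itself was at 62379, 126249 and 79303 CPM (-0.25, SE 1.41), and *Apod*, a lipid carrier, at 3545, 3125 and 3787. Single genes were called in the proteoglycans (*Matn2* of 22), the matrix proteases (*Adamts1* of 9), BMP and WNT signalling (*Sfrp4* of 15), complement (*C4b* of 6), chemokines and cytokines (*Cxcl1* of 8) and the interferon and antigen presentation list (*Cd74* of 15, with 95.7% of the 2VO counts from 1 cell). Over all genes, 1.20% were called higher. The metallothionein gene *Mt1*, at 312, 841 and 2328 CPM, was not called (adjusted p = 0.0687).

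Transcripts of oligodendrocytes and microglia were higher in the fibroblasts of 2VO 1 than in those of either sham library. Other lists differed in direction: astrocyte markers summed to 45.3, 136 and 69.8 per 10000 UMIs in sham 1, sham 2 and 2VO 1. Oligodendrocyte precursor markers summed to 12.4, 5.62 and 5.31, and choroid plexus epithelial markers to 15.4, 20.2 and 31.3. The 10 oligodendrocyte markers summed to 13.8, 28.9 and 89.3 per 10000 UMIs in the fibroblasts of sham 1, sham 2 and 2VO 1. All 10 lay above both sham libraries (34.6% of all genes did), and 2 were called higher (1.20% of all genes were), *Mag* among them. The 10 microglia markers summed to 1.65, 0.741 and 18.2, with 6 of 10 at 0 in each sham library and none in 2VO 1, and 4 were called higher, *C1qa*, *C1qb* and *Ctss* among them. *C1qb* had 0, 0 and 33 counts, at least 17.1-fold higher in 2VO 1 than a floor of 3 counts in each sham library. Its share of fibroblasts with a UMI in 2VO 1, 33.3% (15.6% to 55.3%), overlapped that of endothelial-gated cells, 22.9% (20.6% to 25.3%), and *Mag* had 20.8% (7.13% to 42.2%) against 19.6% (17.5% to 21.9%). A few cells held most of these transcripts: single cells of 2VO 1 reached 430 per 10000 for the oligodendrocyte and 276 for the microglia markers, against medians of 28.5 and 3.01. Without the 6 cells of 2VO 1 chosen on such genes (described below) the sums were 26.4 and 2.55. The part of these transcripts in the other calls was not tested beyond that.

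The regulators were detected in other cells too, in some of them more often than in fibroblasts. Endothelial-gated cells had a *Cebpd* UMI in 33.4%, 24.2% and 26.6% of cells in sham 1, sham 2 and 2VO 1, against 17.9%, 13.7% and 50.0% of fibroblasts. They had a *Socs3* UMI in 7.90%, 15.7% and 18.9%, against 0%, 9.80% and 41.7%, the same order of libraries. Smooth-muscle-gated cells had a *Zfp36* UMI in 62.9%, 62.9% and 68.2%, against 14.3%, 15.7% and 54.2% of fibroblasts. The median depth of smooth-muscle-gated cells was 7217, 6456 and 3507 UMIs, against 3826.5, 3737 and 2787 in fibroblasts. With cells thinned to 1000 UMIs, the smooth-muscle-gated *Zfp36* shares were 14.4%, 20.3% and 40.3%, against 3.70%, 11.8% and 43.5% of fibroblasts. In 2VO 1 these thinned shares were 10 of 23 fibroblasts and 52 of 129 smooth-muscle-gated cells, so the 2 classes were close there. For *Dusp1* the 2VO share of fibroblasts, 41.7% (22.1% to 63.4%), was not above that of endothelial-gated cells, 52.1%. Oligodendrocyte-gated cells, which should hold little *Cebpd*, had it in 6.73%, 13.5% and 7.16%, at median depths of 11632.5, 7984.5 and 2172 UMIs. Thinned in the same way, these shares were 0.592%, 2.59% and 3.47%.

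**Figure D4:**
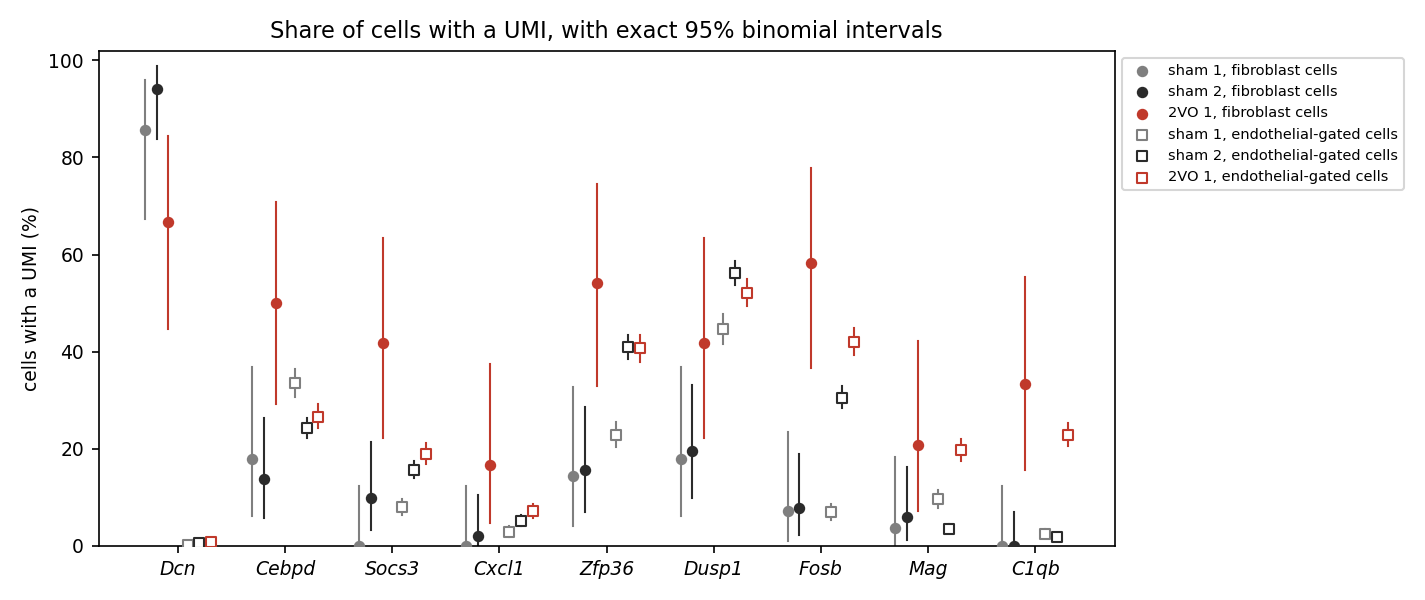
The share of cells with a UMI (y axis, in percent, with exact 95% binomial intervals as bars) for 9 genes (x axis) in fibroblast cells (filled circles) and endothelial-gated cells (open squares), by library. *Dcn* is above 60% in fibroblasts and under 1% in endothelial-gated cells, *Mag* and *C1qb* overlap between the classes in 2VO 1, and *Cebpd* and *Socs3* in 2VO 1 are higher in fibroblasts, with 12 and 10 of 24 cells.

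Leaving out the 8 fibroblasts with summed myelin genes, or summed *C1qa*, *C1qb* and *C1qc*, at 40 or more per 10000 (0, 2 and 6 in sham 1, sham 2 and 2VO 1) left 28, 49 and 18 cells and 5 genes called higher of 3459, all 5 among the 42. They were *Cxcl1* (log2 difference 6.47, adjusted p = 0.00491), *Cebpd* (4.66, 0.00491), *Zfp36* (3.36, 0.022), *Socs3* (4.93, 0.0311) and *Dusp1* (2.92, 0.0419), and none was lower. Leaving out the cells over 10000 UMIs instead (3, 2 and 3 cells, holding 29.0%, 10.5% and 36.1% of fibroblast UMIs) left 0 genes called by edgeR, with 135 at an unadjusted p under 0.05. *Cebpd* was then at a log2 difference of 3.69 (adjusted p = 0.373), *Socs3* at 4.96 (0.473) and *Zfp36* at 2.89 (0.373). DESeq2 on all cells called 4 genes higher, *Cebpd*, *C1qb*, *C1qa* and *Cxcl1*. Both sets of cells were chosen after the values were seen.

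The promoters of 4 of these 5 genes are shown because the genes moved together, each as the 250 bases before the RefSeq start (GRCm38.p6). Capitals mark matches on either strand to AP-1 (TGANTCA), CRE (TGACGTCA), STAT (TTCNNNGAA), the NF-kB motif or the CArG box, which 6.75%, 1.55%, 7.02%, 3.90% and 1.47% of 32851 promoter windows of that length hold. *Socs3* is on the minus strand (chr11:117969367-117969616), *Zfp36* on the minus strand (chr7:28379229-28379478), *Dusp1* on the minus strand (chr17:26508473-26508722) and *Cxcl1* on the plus strand (chr5:90890995-90891244).
Socs3: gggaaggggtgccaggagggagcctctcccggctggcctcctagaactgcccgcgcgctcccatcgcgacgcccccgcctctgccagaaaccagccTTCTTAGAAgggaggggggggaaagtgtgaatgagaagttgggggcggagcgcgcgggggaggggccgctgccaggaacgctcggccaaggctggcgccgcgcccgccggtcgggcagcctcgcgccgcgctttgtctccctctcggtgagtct
Zfp36: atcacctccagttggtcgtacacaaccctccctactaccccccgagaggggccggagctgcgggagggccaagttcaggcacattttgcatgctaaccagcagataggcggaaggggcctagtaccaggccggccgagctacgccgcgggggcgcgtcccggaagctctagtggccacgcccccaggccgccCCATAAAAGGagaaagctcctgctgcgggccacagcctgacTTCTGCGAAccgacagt
Dusp1: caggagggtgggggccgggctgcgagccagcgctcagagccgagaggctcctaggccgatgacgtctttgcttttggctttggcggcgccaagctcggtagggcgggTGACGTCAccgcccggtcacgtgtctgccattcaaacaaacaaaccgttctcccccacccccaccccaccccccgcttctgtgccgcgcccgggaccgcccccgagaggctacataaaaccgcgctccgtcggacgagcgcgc
Cxcl1: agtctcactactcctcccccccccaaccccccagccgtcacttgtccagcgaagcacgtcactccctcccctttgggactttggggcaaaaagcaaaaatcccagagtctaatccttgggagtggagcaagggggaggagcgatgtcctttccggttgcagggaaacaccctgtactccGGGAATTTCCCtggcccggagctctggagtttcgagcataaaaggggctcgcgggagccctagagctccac
A STAT match starts at position -154 of *Socs3*, counted from the start site, and at -17 of *Zfp36*, which also has a CArG match at -58. *Dusp1* has a CRE match at -143, and *Cxcl1* an NF-kB match at -71. The AP-1 letters are in none of the 4 windows. These matches describe the letters and are not shown to be bound.

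The 2VO change of *Cebpd* differed between fibroblasts and pericyte-gated cells by the test of the difference itself. The 2VO 1 level was above both sham levels in fibroblasts and below both in pericyte-gated cells. In the CPM of the 3-class fit *Cebpd* was at 37.6, 64.4 and 1049 in fibroblasts and at 188, 153 and 71.2 in pericyte-gated cells. It was at 158, 213 and 318 in smooth-muscle-gated cells. The 2VO change in fibroblasts exceeded that in pericyte-gated cells by 5.53 on the log2 scale (SE 0.56, adjusted p = 0.00293), the 1 gene called of 6391 (0.0156%), with 479 genes at an unadjusted p under 0.05. Against smooth-muscle-gated cells the difference was 3.54 (SE 0.51, adjusted p = 0.1), and edgeR called 0 genes (0%), with 502 at an unadjusted p under 0.05. Without Scrublet doublets, which leaves 6 fibroblasts in 2VO 1, edgeR called 0 genes against pericyte-gated cells (472 at an unadjusted p under 0.05), and the *Cebpd* difference was 2.40 (adjusted p = 0.631). *Socs3* differed by 5.05 (SE 0.85, adjusted p = 0.23) and 4.70 (SE 0.73, adjusted p = 0.105), and its smooth-muscle level was 180, 577 and 468 CPM. *Dusp1* and *Zfp36* were already at 746 to 917 and 286 to 624 CPM in smooth-muscle-gated cells. There 11 of 18 immediate early genes were called higher than in fibroblasts, against 14.3% of all genes.

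**Figure D5:**
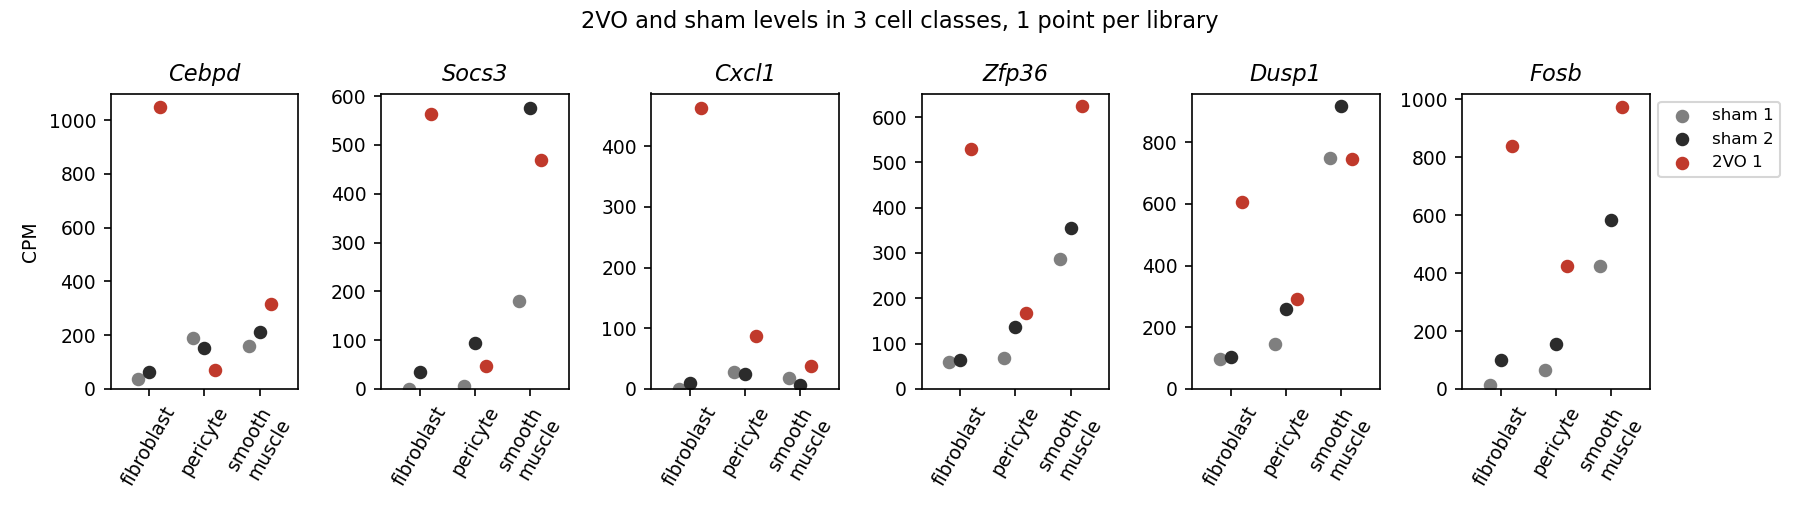
Levels of 6 genes called higher in 2VO fibroblasts, in CPM of the 3-class fit (y axes start at 0), for fibroblasts, pericyte-gated and smooth-muscle-gated cells (x axis), with 1 point for sham 1 (grey), sham 2 (black) and 2VO 1 (red). In fibroblasts 2VO 1 lies above both sham libraries in all 6 genes, *Cebpd* at 1049 against 37.6 and 64.4.

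Within the fibroblasts the *Cebpd* difference lay mainly with *Ptgds*-poor cells, where it was at 0.342, 0.999 and 15.5 per 10000 UMIs in sham 1, sham 2 and 2VO 1, against 0.439, 0.287 and 1.49 in *Ptgds*-rich cells. The cell of 10622 UMIs is one of the poor ones and held 50 of their 89 counts in 2VO 1; without the richest cell of each library the poor cells were at 0.239, 0.245 and 8.32. *Socs3* was at 0, 0.555 and 7.65 in the poor cells and 0, 0.144 and 1.73 in the rich ones, and *Dusp1* at 0.797, 1.78 and 9.04 and at 1.32, 0.359 and 0.743. For *Cebpd* and *Socs3* the 2VO library was above both sham libraries in both sets of cells. The same test called 63 genes higher and 4 lower of 2426 in *Ptgds*-poor cells, and 1 higher (*Cd74*) and 0 lower of 868 in *Ptgds*-rich cells, with 275 and 29 genes at an unadjusted p under 0.05. The genes tested and the cells differ in number, so the counts are not comparable, and the difference between the sets was not tested. *Clmp* was at 4.33, 4.88 and 0.522 in the poor cells and 1.32, 1.72 and 0.495 in the rich ones, lowest in 2VO 1 in both.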

How the data were processed

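Single cells of 4 hippocampi, 2 sham and 2 2VO, were profiled with the 10x Genomics 3′ assay; 3 libraries with a matrix were used. The deposited counts are raw UMI counts per gene and cell that the authors made with Cell Ranger on mm10, and the submitters' processing notes also name Seurat 3.2.2. Depth was 65287386, 40459614 and 18754480 UMIs. Doublets were kept; Scrublet was an alternative.

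Counts were summed per library over the fibroblasts, and per library and class against mural cells, since the mouse is the replicate. The sums were tested in edgeR 4.0.16 (R 4.3.3; TMM, filterByExpr, glmQLFit, glmQLFTest, Benjamini-Hochberg adjustment), with DESeq2 1.42.0 as an alternative. The study tested single cells with a Mann-Whitney test; its fold limit of 1.5 was kept. In simulated data the 2VO test recovered 0.5% of 200 genes changed 2-fold, 23% changed 4-fold and 59.5% changed 8-fold, with 0, 2 and 10 false calls among 3523 genes. Classes of 1 library share its depth and free RNA, so the library was a block.

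Named genes were the 10 called genes per direction with the smallest p, at least 50 summed counts and 2VO 1 beyond both sham libraries (the 4 with the smallest p where fewer than 4 were called). To these came, per function list, the 4 members with the highest level and the 2 with the smallest p, and against mural cells the 10 higher and 5 lower genes with the smallest p and at least 50 CPM. Genes outside this rule, *C1qb* and those in the *Ptgds* sets among them, were chosen after their values were seen. The members and lists were chosen with earlier results of these data known. Gene names come from the deposited files and promoters from RefSeq; *Cebpd* has no entry in that table. Some genes are not reported here.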

Additional observations from a re-analysis of the deposited data

Results flagged for a closer look

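*Cebpd* is given a closer look because its 2VO change differed between cell classes by a test of the difference itself. The change in fibroblasts exceeded that in pericyte-gated cells by 5.53 on the log2 scale (SE 0.56, edgeR quasi-likelihood test, adjusted p = 0.00293 over 6391 genes). In fibroblasts its counts rose in 1 of 1 2VO libraries against both sham libraries, and 12 of 24 fibroblasts of 2VO 1 had a UMI. In pericyte-gated cells its 2VO 1 level lay below both sham levels. In 2VO 1, 52.6% of the fibroblast counts came from 1 cell of 10622 UMIs. With the cells over 10000 UMIs left out, the change in fibroblasts alone was 3.69 (adjusted p = 0.373). With Scrublet doublets left out, which leaves 6 fibroblasts in 2VO 1, the difference between the classes was 2.40 (adjusted p = 0.631) and was not called.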

How the results depend on the processing

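No paired analysis was possible because sham and 2VO share only replicate 1 among the libraries used. Directions of the named fibroblast genes against mural cells held under every alternative run. The count of 42 genes higher and 1 lower in 2VO depended on the cells and settings: 26 and 0 at 200 genes per cell, 0 and 0 at 1000 genes (193 with an unadjusted p under 0.05 in edgeR), 7 lower at a marker sum of 20, 7 and 0 at 40, 86 and 5 with a *Dcn* UMI, 70 and 4 with RLE size factors, 73 and 2 with no filter on low counts, 3 lower after thinning the sums, and 4 and 0 by DESeq2. Leaving out Scrublet doublets gave 89 and 84, but the automatic limit for 2VO 1 marked 18 of its 24 fibroblasts; at 1 limit of 0.2 it was 74 and 4. Of the alternatives added after seeing the data, *Vtn* left out of the pericyte limit gave 75 and 11, *Ptgds*-rich cells 1 and 0, *Ptgds*-poor cells 4 lower, cells without glial sums of 40 or more 5 and 0, and cells of at most 10000 UMIs 0 and 0. The cause was not tested. Most of the changed rules on cells left fewer cells in the fit. The rule of 200 genes per cell and the rule without *Vtn* took more cells. RLE factors, no filter, thinned sums and DESeq2 took the same cells.

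Shares of kept cells moved to 0.332% in 2VO 1 at a marker sum of 20, to 0.274%, 0.234% and 0.0767% at 40, to 0.190% in 2VO 1 without Scrublet doublets, and to 0.920% and 2.17% in the sham libraries against 0.844% in 2VO 1 without *Vtn* in the limit; in each of these 2VO 1 was below both sham libraries, unlike the shares reported. Against smooth-muscle-gated cells, 1649 genes were lower with no filter. The difference of the 2VO change was called in 20 higher and 5 lower genes against pericytes and 30 and 7 against smooth muscle with no filter, in 1 against smooth muscle with 3 UMIs required, in 0 against pericytes and in 5 and 1 against smooth muscle without Scrublet doublets, and in 3 and 1 and in 5 at a limit of 0.2.

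Leaving out each library in turn gave 322 to 577 genes higher and 349 to 548 lower than in pericyte-gated cells, and 610 to 1064 higher and 742 to 1168 lower than in smooth-muscle-gated cells; sham 2 gave the lowest values. Without sham 1 or sham 2 the 2VO comparison has no test; all 44 named genes kept their direction, and 18 and 22 of them moved by more than 1 SE. Log2 differences between 2VO and sham turned sign at a marker sum of 20 for *Mag* (-1.49), *Gpm6b* (-0.12), *C4b* (-0.43), *Neat1* (-0.23) and *Cpe* (0.094), at 40 for *Gm26870* (-6.52) and *Neat1* (-0.23), without Scrublet doublets for *Gadd45g* (-0.66), *Klf2* (-0.28), *Ier2* (-0.20), *Junb* (-0.56) and *Gclc* (-5.62), and in *Ptgds*-rich cells for *Atf3* (-0.72) and *Klf2* (-0.88). *Cebpd*, *Socs3*, *Zfp36*, *Dusp1* and *Cxcl1* kept their direction wherever they were tested.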
